A study of Homo sapiens with 4 samples.

Results

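The NKG2D ligands are the stress-induced cell surface proteins that the activating receptor NKG2D recognizes. They were taken by name as the 8 human genes MICA, MICB, ULBP1, ULBP2, ULBP3, RAET1E, RAET1G and RAET1L, by membership of the family and not by a threshold on measured values. Of the 8 genes, 6 had a probe, among 18755 named genes on the array. RAET1G and RAET1L had none and could not be measured here. The 6 genes were read by 10 probes, namely 2 each for MICA, MICB, ULBP1 and RAET1E and 1 each for ULBP2 and ULBP3.

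Hs746T is an established human gastric carcinoma line in which MET, the receptor of hepatocyte growth factor, is both mutated and amplified. Cells were given the vehicle DMSO, PHA665752, a small-molecule inhibitor of the MET kinase, a scrambled (sc) siRNA or a MET siRNA, and total RNA of each was hybridized to 1 single-colour Agilent array, so that 4 arrays were available. For PHA665752, neither the dose nor the duration used for the array was given in the sources used here. The siRNA cells were transfected with Lipofectamine, and the MET siRNA was a single duplex. All 4 arrays carried the same cell line, hence a single genetic background. With 1 array per condition no test and no SD between replicates could be had, and this number limits the precision of each value.

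NKG2D sits on natural killer cells, CD8 T cells and gamma-delta T cells, where it pairs with the adaptor DAP10, encoded by HCST. Healthy cells carry few of its ligands, whereas heat shock, DNA damage, infection and transformation induce them and mark the cell for killing. The ligands are also controlled after transcription, since metalloproteases cut them from the surface, and the mRNA level does not give the amount on the cell.

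The genes lie on chromosome 6 in 2 clusters. MICA and MICB neighbour each other in the major histocompatibility complex, and the order in the other cluster is RAET1E, RAET1G, ULBP2, ULBP1, RAET1L and ULBP3. RefSeq promoters (GRCh38.p14) of 5 measured genes are given, each as the 250 bases before the listed start, 5′ to 3′ on the strand of the gene. Those of MICA and MICB are shown because the pair is alike, and those of ULBP1, ULBP3 and RAET1E because these are the genes that passed 2-fold. Capitals mark the GC box (GGGCGG), the core of the heat shock element (GAANNTTC) and the E box (CACGTG), searched on both strands.
MICA, chr6:31403345-31403594, plus strand: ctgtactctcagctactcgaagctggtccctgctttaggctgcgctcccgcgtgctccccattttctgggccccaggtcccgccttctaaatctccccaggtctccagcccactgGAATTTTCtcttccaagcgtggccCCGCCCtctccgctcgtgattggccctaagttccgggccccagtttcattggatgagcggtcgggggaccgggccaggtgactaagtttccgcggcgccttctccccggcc
MICB, chr6:31497895-31498144, plus strand: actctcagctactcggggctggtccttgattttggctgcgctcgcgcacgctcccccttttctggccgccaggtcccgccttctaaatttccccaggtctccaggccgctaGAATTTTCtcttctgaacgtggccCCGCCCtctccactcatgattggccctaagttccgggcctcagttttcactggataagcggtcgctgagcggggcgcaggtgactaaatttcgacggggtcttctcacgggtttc
ULBP1, chr6:149963693-149963942, plus strand: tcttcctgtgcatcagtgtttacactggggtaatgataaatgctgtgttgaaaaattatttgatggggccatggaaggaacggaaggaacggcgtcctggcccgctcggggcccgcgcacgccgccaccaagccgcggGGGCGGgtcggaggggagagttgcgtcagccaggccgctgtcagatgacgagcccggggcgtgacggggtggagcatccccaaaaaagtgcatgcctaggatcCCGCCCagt
ULBP3, chr6:150069122-150069371, minus strand: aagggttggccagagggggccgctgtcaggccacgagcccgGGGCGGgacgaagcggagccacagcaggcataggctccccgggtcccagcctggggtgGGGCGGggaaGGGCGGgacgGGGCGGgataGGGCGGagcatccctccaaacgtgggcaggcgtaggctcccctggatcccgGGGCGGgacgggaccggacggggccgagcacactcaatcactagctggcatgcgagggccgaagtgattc
RAET1E, chr6:149898114-149898363, minus strand: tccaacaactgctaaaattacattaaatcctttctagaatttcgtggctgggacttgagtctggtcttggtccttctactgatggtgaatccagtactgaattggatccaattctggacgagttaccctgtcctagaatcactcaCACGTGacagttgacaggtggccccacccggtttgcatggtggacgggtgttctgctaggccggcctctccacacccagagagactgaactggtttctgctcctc

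The MICA and MICB promoters were identical at 210 of 254 aligned columns, or 82.7%, while the next closest pair of ligand promoters, ULBP2 and RAET1G, reached 53.8%. Both held 1 heat shock element core with the same letters, beginning 135 bases before the start in MICA and 139 bases before it in MICB. This core occurred in 5.78% of the 35116 promoters searched and in no other ligand promoter. A GC box, the letters that SP1 binds, followed it in both genes, 111 and 115 bases before the start, and occurred in 42.6% of all promoters. ULBP1 held 2 GC boxes and ULBP3 held 6, whereas none was found at any of the 3 starts listed for RAET1E. The most upstream of those starts, the one shown, held the only E box among the ligands, 105 bases before it. An E box occurred in 6.34% of all promoters. The TATA box (TATAAA, in 10.7% of promoters) and the E2F core (TTTCGCGC or TTTGGCGC, in 0.968%) matched none of the ligand windows. A match is a description of the letters and was not tied to binding of a factor.

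Signals are the processed intensity of a spot after background subtraction, and ratios compare arrays after division by the 75th percentile of each array. That percentile was 990.1 with DMSO, 853 with PHA665752, 831 after sc siRNA and 858 after MET siRNA. The MET siRNA array stood apart, with 61.1% of probes well above background against 67.4% to 68.2% on the other 3 arrays, and 5.58% of spots marked as outliers against 1.69% to 2.21%. None of the ligand spots carried an outlier or saturation mark. Errors printed with a log2 ratio are the error that Feature Extraction estimated for the spots. This was much wider than the 0.0768 log2 units derived for a ratio from the median SD between spots of probes spotted 10 times. Both are technical and leave out the difference between cultures. The MET signal itself was 221451 with DMSO, 100492 with PHA665752, 190010 after sc siRNA and 77854 after MET siRNA. Its log2 ratio was -0.93 for PHA665752 over DMSO and -1.33 for MET siRNA over sc siRNA. These are mRNA values and do not measure kinase activity. The paper reports that phosphorylated MET fell more with PHA665752 than with the knockdown.

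EPCAM, KRT8, KRT18 and KRT19, epithelial genes, were well above background on all 4 arrays, and so were the mesenchymal genes CDH2, FN1, ZEB1 and SNAI2. FN1, fibronectin, went from 1061 with DMSO to 3564 with PHA665752, and its log2 ratio was 1.96, against 0.48 for MET siRNA. ZEB1 went the other way, with -0.73 for PHA665752 and -0.53 for MET siRNA. In the same order CDH2 had 0.26 and 0.10 and SNAI2 had 0.39 and -0.31. The mesenchymal genes thus did not move together. CDH1, the E-cadherin of epithelia, lay between 10.4 and 33 and was not well above background with MET siRNA, and the gastric and intestinal markers GKN1 and KRT20 were below that limit on all 4 arrays. The gastric genes MUC6 and TFF1 were well above background on all 4. Of 13 leukocyte markers, 6 passed this limit on the DMSO and the PHA665752 array, 5 after sc siRNA and 4 after MET siRNA, and their summed signals ran from 410 with sc siRNA to 892 with PHA665752. CD3E, KLRD1, GNLY and PRF1 were not well above background on any array, whereas PTPRC, CD14, TYROBP and HCST were on all 4 and CD2 on all but the MET siRNA array. PTPRC, at 22.7 to 37.8, and CD2, at 13.3 to 25.8, were dim. RNA of a whole culture was measured, so that a change in fewer cells and a smaller change in every cell cannot be told apart.

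With PHA665752, 1 of the 6 measured ligands passed 2-fold higher and 2 passed it lower. ULBP1 was 2.22-fold higher than with DMSO, ULBP3 was 2.13-fold lower and RAET1E was 4.56-fold and 5.82-fold lower by its 2 probes, while MICA, MICB and ULBP2 stayed within 2-fold. MET siRNA shared the higher ULBP1, by 2.25-fold over sc siRNA, and left the other 5 genes within 2-fold. Of all genes with a ratio, 13.1% were past 2-fold higher and 8.04% lower with PHA665752, and 2.04% were higher and 0.696% lower with MET siRNA. RAET1E cleared 2-fold by more than the Feature Extraction error, whereas the brighter ULBP1 probe and ULBP3 passed it by less than theirs. Among the ligands, only RAET1E stayed past 2-fold with PHA665752 in all 8 other ways of processing.

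**Figure D1:**
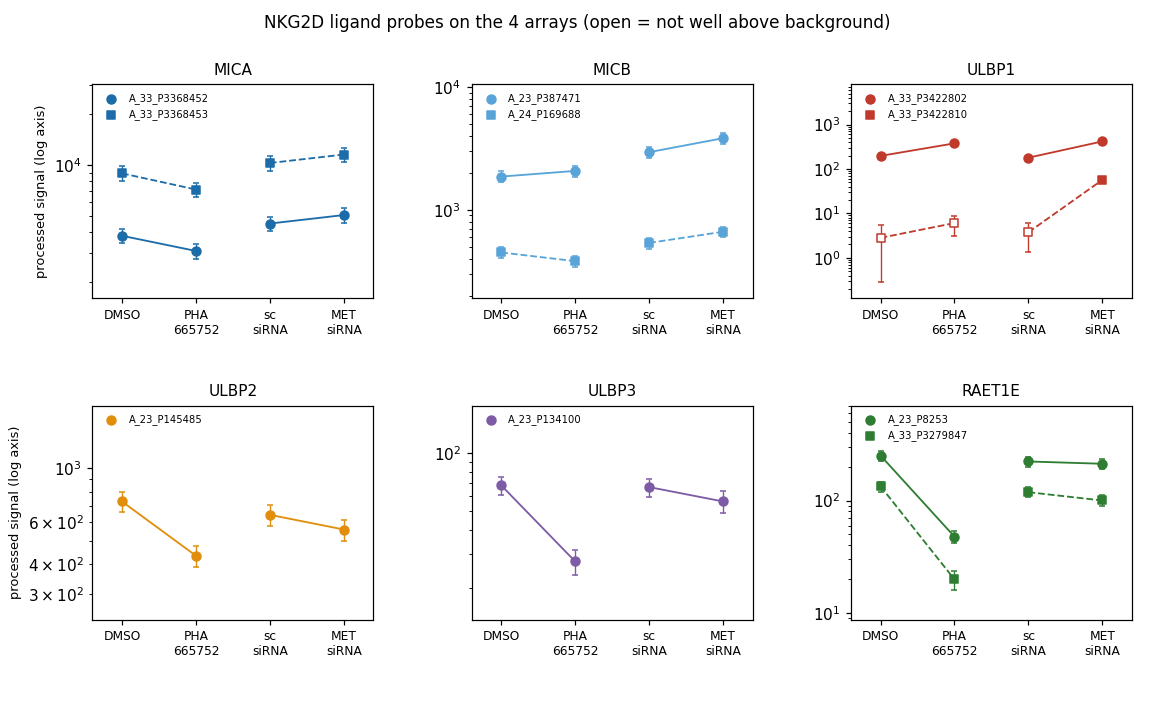
Processed signal (log axis) of each NKG2D ligand probe on the 4 arrays, 1 panel per gene, with the Feature Extraction error as bars, lines joining each treatment to its control and open symbols for spots not well above background. RAET1E, at 252 and 134 with DMSO, read 47.7 and 19.9 with PHA665752, while the brighter ULBP1 probe was higher on both treated arrays.

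ULBP1 is a glycosylphosphatidylinositol (GPI) anchored ligand with the 2 NKG2D-binding domains but without the third, immunoglobulin-like domain of MICA and MICB. Its probe A_33_P3422802 (NM_025218) read 197 with DMSO, 378 with PHA665752, 179.7 after sc siRNA and 418 after MET siRNA. The treated arrays were the high ones and the controls were close to each other. The log2 ratio was 1.15 (error 0.20) for PHA665752 and 1.17 (error 0.20) for MET siRNA, against 0.12 between the controls. Larger differences than these between the control arrays were seen for 3.03% and 2.94% of genes. Among all genes, 1513 of 14322 were higher than ULBP1 with PHA665752 and 207 of 13647 with MET siRNA. Over the 8 other ways of processing, the log2 ratio ran from 0.91 to 1.15 for PHA665752 and from 0.79 to 1.19 for MET siRNA, and stayed past 2-fold in 7 and in 6 of them.

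The second ULBP1 probe, A_33_P3422810, behaved differently. It read 2.82 with DMSO, 6.07 with PHA665752 and 3.77 with sc siRNA, all not well above background, and 56.7 with MET siRNA. It was thus measured with MET siRNA only, at least 5.37-fold higher than with sc siRNA, and gave no ratio for PHA665752. The log2 value of 2.42 behind this bound ran from 0.80, within 2-fold, with normexp to 3.86 over the alternatives that gave one. A total of 181 probes of the array were well above background with MET siRNA alone, and 47 of these were at least as bright as this one. The same counts were 24 of 391 with DMSO, 40 of 611 with PHA665752 and 27 of 439 with sc siRNA. Both probes of ULBP1 were thus higher with MET siRNA, but their log2 values differed by 1.25. The PHA665752 value of this gene rests on the brighter probe alone.

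ULBP2, also GPI-anchored, had 1 probe, A_23_P145485 (NM_025217). It read 729 with DMSO, 433 with PHA665752, 641 after sc siRNA and 557 after MET siRNA. The PHA665752 array was the lowest, with a log2 ratio of -0.54 (error 0.20), and the MET siRNA ratio was -0.25 (error 0.20). Both were within 2-fold, and 13.6% of genes differed by more than the first value between the controls.

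ULBP3, the third GPI-anchored member, was dim, and its only probe A_23_P134100 (NM_024518) read 68.2 with DMSO, 27.6 with PHA665752, 66.8 after sc siRNA and 56.3 after MET siRNA. One array, PHA665752, was low and the other 3 were close. The log2 ratio was -1.09 (error 0.27) for PHA665752 and -0.29 (error 0.24) for MET siRNA. The size depended on the processing, since the PHA665752 value ran from -1.41 with quantile normalization to -0.36, within 2-fold, with normexp correction. A control difference larger than 1.09 was found for 3.39% of genes.

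RAET1E, also called ULBP4, is held in the membrane by a transmembrane segment. Its probe A_23_P8253 (NM_139165) read 252 with DMSO, 47.7 with PHA665752, 223 after sc siRNA and 213 after MET siRNA. The probe A_33_P3279847 read 134, 19.9, 119 and 100.3 in the same order. Both probes were low on the PHA665752 array and differed little among the other 3. The log2 ratios for PHA665752 were -2.19 (error 0.22) and -2.54 (error 0.31), against -0.11 (error 0.21) and -0.29 (error 0.22) for MET siRNA and 0.08 for either probe between the controls. Only 194 of 14322 genes, or 1.35%, lay lower than the first probe with PHA665752. Both probes stayed past 2-fold lower in all 8 alternatives, between -2.43 and -1.33 for the first and between -2.83 and -1.07 for the second, normexp giving the smallest size of each. Differences of these sizes between the controls were found for 0.799% and 0.567% of genes. The probe sequences were not used here, and which RefSeq transcript each probe reads was not settled.

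MICA is a transmembrane ligand with 3 extracellular domains, and its promoter, shown above, holds the heat shock element core. Probe A_33_P3368453 (NM_000247) read 8916 with DMSO, 7141 with PHA665752, 10269.8 after sc siRNA and 11537 after MET siRNA. Probe A_33_P3368452 read 3789.9, 3078, 4480.2 and 5034 in the same order. Both placed the siRNA arrays above the pair given DMSO or PHA665752. The log2 ratios were -0.11 and -0.09 for PHA665752, 0.12 by both probes for MET siRNA and 0.46 and 0.49 for sc siRNA over DMSO, each with an error of 0.20. The difference between the controls was thus larger than either treatment ratio, and both changed sign over the alternatives, from -0.35 to 0.02 for PHA665752 and from -0.18 to 0.16 for MET siRNA by the brighter probe.

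MICB, the closest relative of MICA, repeated this order by its probe A_24_P169688, which read 449 with DMSO, 381 with PHA665752, 537 after sc siRNA and 662 after MET siRNA. The brighter probe A_23_P387471 (NM_005931) read 1867, 2076, 2952 and 3836. By both probes the 2 siRNA arrays were the higher ones. The brighter probe gave log2 ratios of 0.37 for PHA665752 and 0.33 for MET siRNA, and 0.91 for sc siRNA over DMSO, a 1.88-fold difference between the controls, which 482 of 14274 genes exceeded upward. The dimmer probe gave -0.02, 0.25 and 0.51, of which the treatment values changed sign over the alternatives. Between the 2 MICB probes the PHA665752 ratio differed by 0.39 and the control ratio by 0.40, while the MET siRNA ratio differed by 0.08. The sc siRNA and DMSO arrays differed in transfection as well as in culture, and these cannot be told apart.

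**Figure D2:**
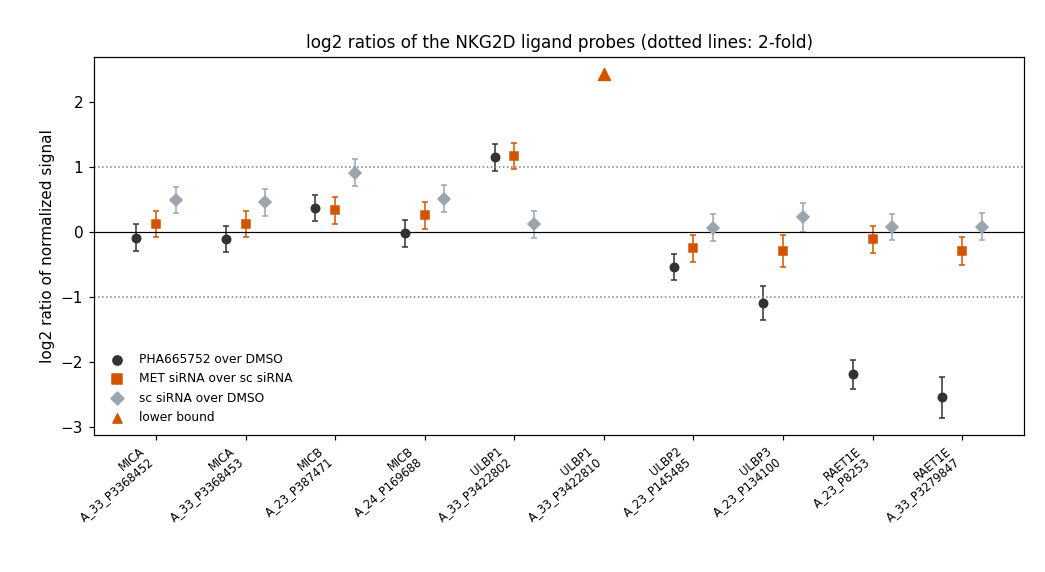
log2 ratio of each NKG2D ligand probe for PHA665752 over DMSO, MET siRNA over sc siRNA and sc siRNA over DMSO, with the Feature Extraction error as bars, dotted lines at 2-fold and a triangle for the ULBP1 value that is a lower bound. Both RAET1E probes lie below -2 with PHA665752 only, the brighter ULBP1 probe lies past 2-fold with both treatments, and the MIC probes lie highest between the controls.

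Counted by the brightest probe of each gene, 1 of 6 ligands was past 2-fold higher and 2 of 6 were lower with PHA665752, and 1 of 6 was higher and 0 lower with MET siRNA, to be read against the shares of all genes given above. Between the controls 0 of 6 passed 2-fold in either direction, where 4.05% of genes did. With 6 genes these counts describe the family and no more. The median log2 ratio over the 6 ligands was -0.32 for PHA665752, 0.0032 for MET siRNA and 0.17 between the controls, beside medians over all genes of 0.075, -0.017 and -0.010. The comparison of controls shares an array with each of the others, whereas the PHA665752 and the MET siRNA comparisons share none.

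The treatments were set side by side by subtracting the MET siRNA ratio from the PHA665752 ratio. The difference was -2.07 (error 0.30) and -2.25 (error 0.38) for RAET1E, on the log2 scale, and -0.80 (error 0.36) for ULBP3. For ULBP1 it was -0.02 (error 0.29), for ULBP2 -0.29 (error 0.29), and for the MIC probes between -0.28 and 0.04. The inhibitor and knockdown values of RAET1E were thus the farthest apart among the measured ligands. Those of ULBP3 also differed by more than their error. With normexp correction, however, the ULBP3 values were -0.36 and -0.16, closer together, so that its gap depended on the processing. Those of ULBP2, the brighter ULBP1 probe and the MICA and MICB probes differed by less than theirs. Treatment differences could not be tested without replicates, and the kind of intervention, its time and its depth of MET suppression cannot be told apart.

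**Figure D3:**
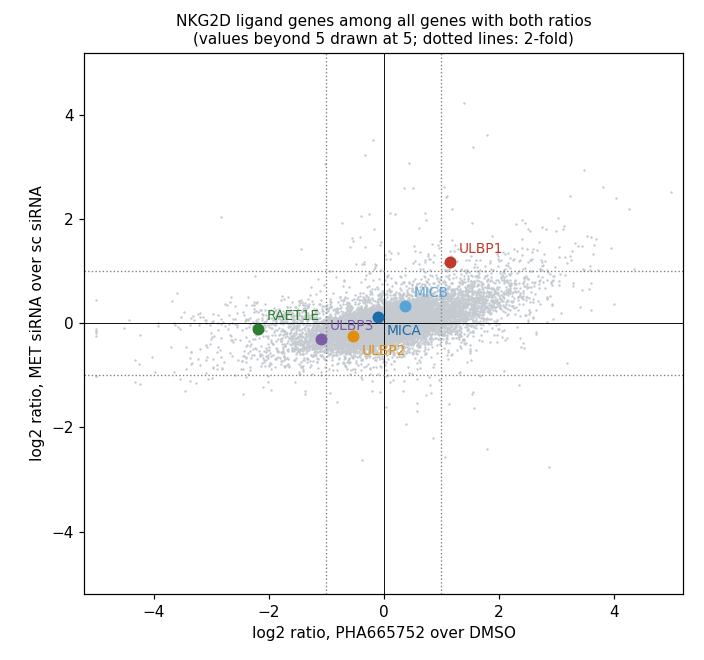
log2 ratio for PHA665752 over DMSO (horizontal) against log2 ratio for MET siRNA over sc siRNA (vertical) of all genes with both ratios (grey, brightest probe) and of the 6 NKG2D ligands (coloured), dotted lines at 2-fold. ULBP1 is the ligand past 2-fold on both axes, at 1.15 and 1.17, and RAET1E lies at -2.19 and -0.11.

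Genes whose pattern over the 4 arrays was most like RAET1E were sought among 13073 genes well above background on all 4, by the root mean square difference of centred log2 signals. For probe A_33_P3279847 they were PRLR, the prolactin receptor, at 0.042, ZNF367 at 0.068 and RDUR at 0.11. For probe A_23_P8253 they were FHL2, a LIM domain protein, at 0.065, XRCC3, a recombination repair protein, at 0.098, and MTFP1, a mitochondrial fission protein, also at 0.098. The probes shared none of these genes. Likeness over 4 arrays is a description of the PHA665752 array being low.

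Of the proteins that act on the ligands at the surface, 10 of 11 listed were on the array. With PHA665752, 0 were past 2-fold higher and 1 was lower of the 8 with a ratio, near the 8.04% of all genes that were lower, and the median log2 ratio was 0.10. That gene was MMP14, a membrane metalloprotease that cuts MICA, which read 19912 with DMSO, 5474 with PHA665752, 15208 after sc siRNA and 12874 after MET siRNA. The PHA665752 array was the low one, with log2 ratios of -1.65 for PHA665752 and -0.29 for MET siRNA. ADAM17, a sheddase of several ligands, had log2 ratios of 0.80 and 0.30, and ADAM10, another, 0.07 and -0.03. The ADAM10 value for PHA665752 and the ADAM17 value for MET siRNA changed sign under another scaling of the arrays. PDIA6, a disulphide isomerase that opens MICA for cutting, had -0.17 and -0.22. With MET siRNA 1 of 9 was past 2-fold lower. It was MMP2, another metalloprotease, which was well above background with sc siRNA only, at 36.5, and whose log2 ratio of -1.12 is a bound. The bound came within 2-fold, at -0.50, under other processing. Of all genes, 0.696% were past 2-fold lower in this comparison.

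Of 22 listed regulators of the ligand genes, 21 had a ratio. With PHA665752, 4 were past 2-fold lower and 0 higher, beside 8.04% and 13.1% of all genes, and the median log2 ratio was -0.31 beside 0.075 over all genes. The list was chosen with earlier results of these data known, so that these values describe it and are no test of a shift. E2F1, a cell cycle transcription factor, read 4016 with DMSO, 302 with PHA665752, 1992 after sc siRNA and 2236 after MET siRNA, and its log2 ratios were -3.52 and 0.12. E2F2, its relative, had log2 ratios of -3.68 and 0.44. The checkpoint kinase CHEK1 gave -1.32 and -0.14, and the histone methyltransferase EZH2 gave -1.20 and 0.23, with PHA665752 again first. With MET siRNA 0 of 21 passed 2-fold, where 2.73% of all genes did, and the median was -0.02. HSF1, which binds heat shock elements, had log2 ratios of -0.34 and -0.12, and SP1 had 0.18 and 0.13; both are named for the promoter motifs, a choice made after their values were seen. Under another scaling the SP1 values and the MET siRNA values of E2F1 and EZH2 changed sign. Between the controls E2F1 had a log2 ratio of -0.76 and E2F2 of -1.11.

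The 10 genes listed for GPI anchors, which hold ULBP1, ULBP2 and ULBP3 at the surface, all stayed within 2-fold in the 3 comparisons. Their medians were 0.0037 for PHA665752, 0.047 for MET siRNA and -0.039 between the controls. Under other processing PIGU and PIGA passed 2-fold lower with PHA665752, at -1.13 and -1.01. Ligands of other NK cell receptors had 10 of 12 genes on the array, of which 1 was past 2-fold higher and 1 lower with PHA665752, near the 13.1% and 8.04% of all genes, and 0 with MET siRNA. ICAM1, the adhesion ligand of LFA-1, read 35.3 with DMSO, 87.8 with PHA665752, 58.4 after sc siRNA and 85.9 after MET siRNA, with log2 ratios of 1.53 and 0.51 for the treatments and 0.98 between the controls. The PHA665752 value of ICAM1 came within 2-fold, at 0.81, under other processing. PVR, the ligand of DNAM-1 and TIGIT, read 1252, 429, 1112 and 908 in the same order, with log2 ratios of -1.33 and -0.34. The PHA665752 array was thus the lowest for PVR, as it was for RAET1E, ULBP2 and ULBP3. It was also the lowest for both MICA probes and the dimmer MICB probe, with log2 ratios to DMSO of -0.11, -0.09 and -0.02. The median of this list between the controls was 0.41.

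**Figure D4:**
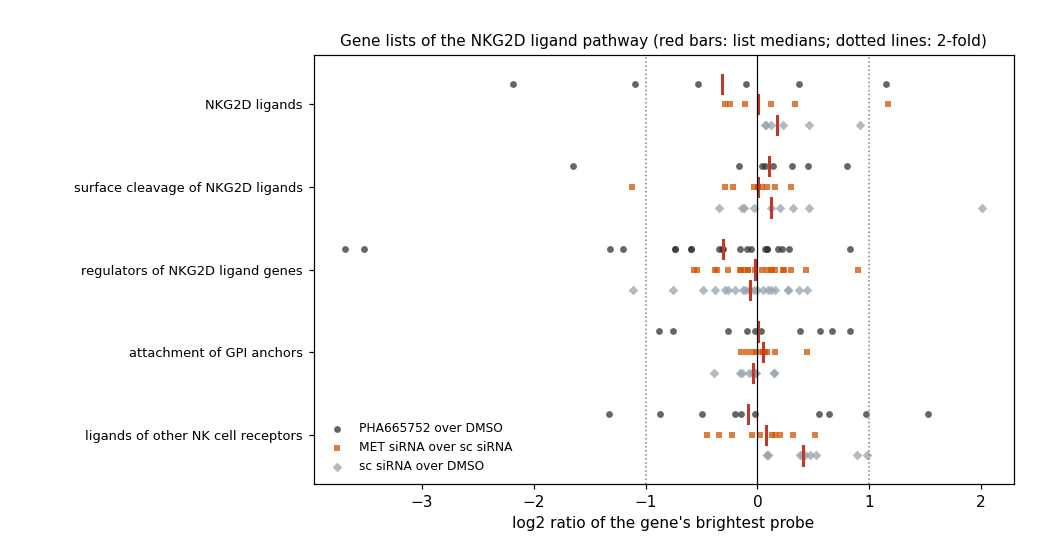
log2 ratio of the brightest probe of each gene (points) and list median (red bars) for the NKG2D ligands and 4 related lists, in the treatment and control comparisons, dotted lines at 2-fold; the MMP2 values are bounds. The PHA665752 points spread widest, down to -3.68 for E2F2 among the regulators, and the GPI anchor genes stay within 2-fold.

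The receptor gene itself, KLRK1, was not well above background on any array, at 2.10 to 3.53. HCST, which encodes DAP10, was measured on each, at 163.5 with DMSO, 581 with PHA665752, 126 after sc siRNA and 201 after MET siRNA. The PHA665752 array was the high one, with a log2 ratio of 2.04, against 0.63 for MET siRNA and -0.12 between the controls. Its value for PHA665752 ran from 1.73 to 2.04 over the alternatives. HCST gave most of the summed leukocyte marker signal with PHA665752 that is stated above, and whether leukocyte RNA had a part in it was not tested beyond the markers named there. Of the other loci in the clusters, HCP5, a long noncoding RNA between MICA and MICB, had log2 ratios of 0.41 for PHA665752, 0.15 for MET siRNA, which changed sign under another scaling, and 0.42 between the controls. RAET1K, a pseudogene of the other cluster, was well above background with sc siRNA only.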

How the data were processed

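Total RNA of Hs746T cells was labelled with Cy3 and read on Agilent 44K (V2) arrays, 1 array per condition. The authors deposited Feature Extraction output (version 11.5.1.1 by its headers). Its processed signal is a background-subtracted linear intensity per spot, with no normalization between arrays. The study's methods name GeneSpring normalization, which these values do not carry. Columns of the series matrix, deposited on the same intensity scale, served as an alternative only.

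Outlier spots were left out, the log2 signals of repeated spots were averaged, and each array was centred on its 75th percentile. Where a probe was not well above background on 1 array of a pair, its value is a bound if the bound left the measured array higher. Otherwise, and where it was so on both arrays, there is no ratio. Probes were named through RefSeq accessions (GRCh38.p14), which gave a symbol to 25771 of 34127 probes (75.5%). The array was annotated on another build, so coordinates are those of the RefSeq promoters alone. The brightest probe stood for a gene. No test was possible with 1 array per condition, and the calculation of ratios and bounds was tested on simulated data. The members and lists were chosen with earlier results of these data known. Named were all ligand probes, MET, list genes past 2-fold with a treatment, ADAM10, ADAM17, PDIA6, and the 3 genes most like each of the 2 widest-ranging ligand probes. Outside this rule, HSF1, SP1, HCP5, RAET1K, PIGA, PIGU and the cell type markers were also named. Alternatives were the 50th percentile, quantile normalization, the median of probes well above background, normexp correction (offset 50), no filter and a strict filter on dim probes, outlier spots kept, the series matrix, and, for genes, the median of all their probes. Python 3.11.15, numpy 2.4.6, pandas 2.3.3, matplotlib 3.10.9, R 4.3.3 and limma 3.58.1 were used.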

Additional observations from a re-analysis of the deposited data

Results flagged for a closer look

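Opposite signs with PHA665752 and with MET siRNA were found for 3 ligand probes. The PHA665752 ratio minus the MET siRNA ratio was -0.21 and -0.23 for the MICA probes A_33_P3368452 and A_33_P3368453, and -0.28 for the MICB probe A_24_P169688, on the log2 scale. The difference was not tested, each value was smaller than its Feature Extraction error of 0.29, and the signs of the single ratios changed under some ways of processing. The other MICB probe, A_23_P387471, had the same sign with both treatments.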

How the results depend on the processing

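No paired analysis was possible because each condition had 1 array, so neither could a replicate be left out. Of the ligand probe ratios under other processing, 198 moved by less than the Feature Extraction error, 25 moved by more, and none of those past 2-fold turned sign. These counts include the bound of the dimmer ULBP1 probe, for which no such error was given. The ligand median for PHA665752 was -0.57 with the 50th percentile and -0.42 with the median of probes well above background, for MET siRNA -0.30 with the latter, and for sc siRNA over DMSO 0.072 with the 50th percentile. Those scalings also moved the median of all genes, to -0.17 for PHA665752 with the 50th percentile and to -0.31 for MET siRNA with probes well above background. Relative to all genes the ligand medians moved little. The count of ligands past 2-fold with MET siRNA, 1, became 0 with the median of probes well above background and 0 with normexp, because ULBP1 then fell short of 2-fold. With PHA665752 it was 2 in place of 3 with the 50th percentile, where ULBP1 fell short, and with normexp, where ULBP3 did. Signal over background limits ULBP3, the dimmer RAET1E probe and the dimmer ULBP1 probe most.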
